A study of Mus musculus with 6 samples.

Results

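Zeugopod mesenchyme, the mesenchymal cells of the middle limb segment, was taken as the cells that carried the deposited label "Zeugopod mesenchyme" in the C57BL/6 wild-type and Dup hindlimbs. The label held 2000 of the 6944 cells of that pair of libraries, and 1986 of 6897 were kept after a minimum of more than 2000 detected genes. These were 638 wild-type and 1348 Dup cells. The series as a whole holds 26486 cells in 6 libraries, and 2 of the libraries carry the label. The autopod label (326 wild-type and 1468 Dup cells) and the stylopod label (688 and 776 cells) served as the neighbours to compare with.

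Both groups were hindlimb buds at stage E11.5 on the strain given as c57bl6.J. The wild-type group carried no engineered allele, and the Dup group was homozygous for a tandem duplication at the Lbx1/Fgf8 locus from Lbx1 to Fbxw4, with Btrc, Poll and Dpcd in between and Fgf8 left outside. The duplication was built in mouse embryonic stem cells, from which embryos were made by aggregation and lines by crossing to C57BL/6, and it is carried by every cell of the embryo, so no promoter or Cre restricts it. The buds were dissociated with trypsin and each group gave 1 droplet library with 3′ end counting of unique molecular identifiers (UMIs). With 1 library per group there is no replicate and no test of genotype, and each difference below is between these 2 libraries. Levels are CPM, the summed UMIs of a gene in a label and library scaled to a total of 1000000 UMIs. Ranges in parentheses after a level, share or ratio are exact 95% intervals that cover counting error only. The labels were drawn by the authors from clusters of these same counts, so contrasts between labels describe the labels and are no test either.

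The vertebrate limb is laid out along the proximal to distal axis as stylopod (thigh), zeugopod (shank) and autopod (foot). Each segment is known for its own transcription factors. Meis genes mark the proximal bud, the paralogous group 11 Hox genes Hoxa11 and Hoxd11 are needed for the zeugopod skeleton, and Hoxa13 and Hoxd13 mark and pattern the autopod. Shox2, a homeobox gene, is needed for the proximal long bones. At the stage sampled the zeugopod is still largely mesenchyme in which cartilage condensations begin, with tendon and muscle connective tissue progenitors among the same cells.

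The upstream sequences of Hoxa11 and Hoxd11 are shown because both genes were lower together in the Dup cells (below). Each run is the 250 bases before an annotated start, 5′ to 3′ on the gene's strand, from RefSeq on GRCm38.p6, with matches to TAATTA, a core that homeodomain proteins bind, in capitals. Hoxd11 has a pair of annotated starts, at chr2:74679308-74679557 and chr2:74682073-74682322 (plus strand), and Hoxa11 has one, at chr6:52245811-52246060 (minus strand).
Hoxd11, first start: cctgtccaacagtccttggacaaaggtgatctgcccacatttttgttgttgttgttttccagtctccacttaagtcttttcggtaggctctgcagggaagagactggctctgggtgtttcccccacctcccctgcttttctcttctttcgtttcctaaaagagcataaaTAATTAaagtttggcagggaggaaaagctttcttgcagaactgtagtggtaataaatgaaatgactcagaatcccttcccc
Hoxd11, second start: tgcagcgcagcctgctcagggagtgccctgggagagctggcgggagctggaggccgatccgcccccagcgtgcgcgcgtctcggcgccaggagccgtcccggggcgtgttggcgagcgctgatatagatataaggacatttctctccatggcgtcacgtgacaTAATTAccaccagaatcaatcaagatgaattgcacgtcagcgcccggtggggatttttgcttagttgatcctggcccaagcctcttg
Hoxa11: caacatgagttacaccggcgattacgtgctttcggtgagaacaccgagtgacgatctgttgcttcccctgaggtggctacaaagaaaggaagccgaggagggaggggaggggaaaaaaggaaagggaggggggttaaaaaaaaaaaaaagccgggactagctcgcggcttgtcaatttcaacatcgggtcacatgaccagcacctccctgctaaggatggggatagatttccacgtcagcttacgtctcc
TAATTA, which is its own reverse complement, was present 1 time before each Hoxd11 start and 0 times before the Hoxa11 start. Of 32851 promoters of the same length, 4.84% hold it. A match is a description of letters, and its absence says only that the letters are not in that window.

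Depth differed between the libraries. Zeugopod cells had a median of 8536 UMIs and 2980 genes in the wild type and 6298 UMIs and 2422 genes in Dup, and the label summed to 6113530 and 9442041 UMIs. The libraries shared 9 cell barcodes. Markers of other cell types were low in the label. The 7 muscle genes summed to 22.2 CPM in wild-type and 12.5 CPM in Dup zeugopod cells against 1425 and 2132 in cells labelled muscle, with Pax7 at 0 in both libraries and Pax3 at 0 in Dup. The 5 endothelial genes summed to 3.44 and 1.38 CPM (Tie1 at 0 in both), the 5 blood and immune genes to 9.49 and 5.51, the 7 ectoderm genes to 40.4 and 43.1, and the 7 neural crest and neuron genes to 24.4 and 26.1. Haemoglobin UMIs were present in every label and summed to 3663 CPM in wild-type and 2686 CPM in Dup zeugopod cells.

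Of the genes chosen as markers of the label, Hoxa11 alone peaked in it. Hoxa11 stood at 177 (166 to 188) CPM in wild-type and 125 (118 to 132) CPM in Dup zeugopod cells, against 54.2 and 51.2 in stylopod and 41.1 and 16.3 in autopod cells. Hoxd11 was at 246 (233 to 258) and 147 (139 to 155) CPM, higher than in stylopod (69.5 and 59.1) and lower than in autopod cells (327 and 237). Shox2 was at 229 (217 to 241) and 175 (167 to 184) CPM, between a stylopod maximum of 386 and 453 and an autopod level of 47.7 and 20.2. The level of Hoxa11 thus went with the label's name in both libraries, while those of Hoxd11 and Shox2 lay between the neighbouring segments. Hoxa11 overlaps an antisense transcript on the annotation, and none of the sources used here say whether strand entered the counting, so its level may hold antisense reads.

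**Figure D1:**
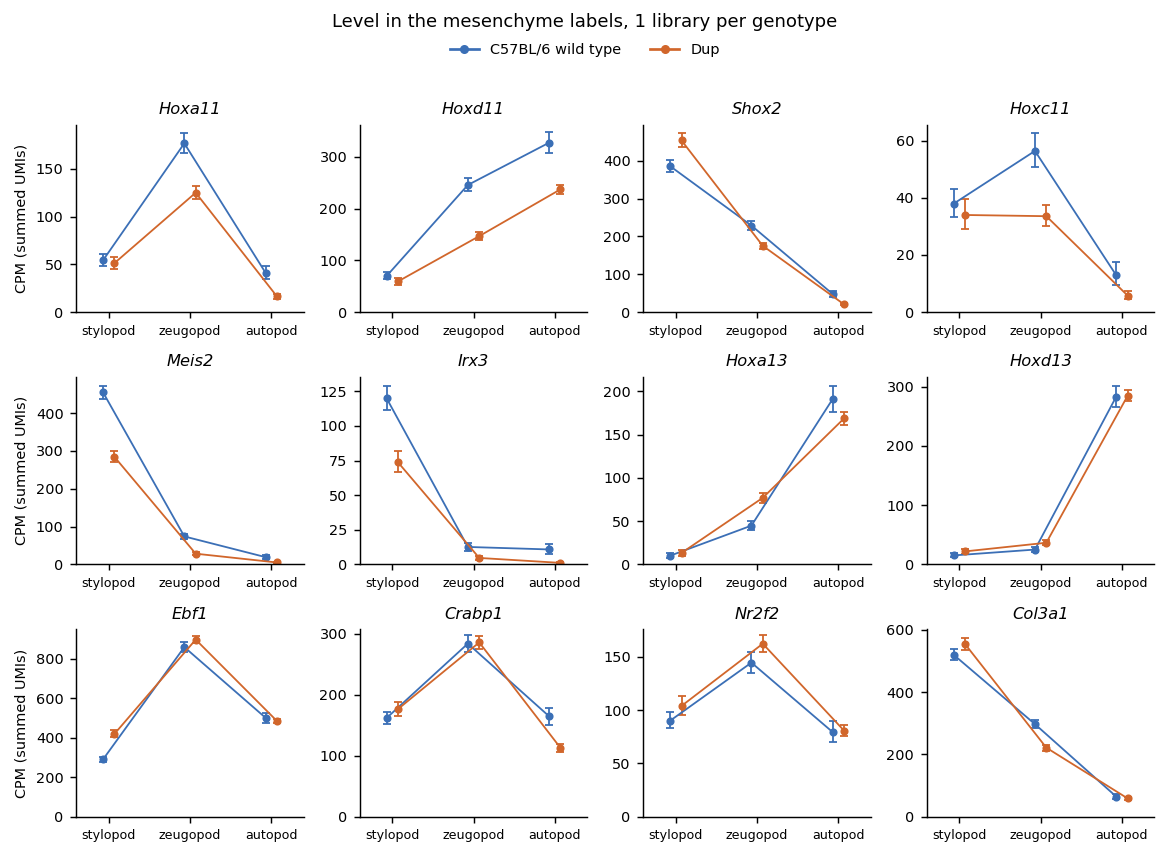
Level of 12 genes (CPM of summed UMIs, linear axis per gene) in stylopod, zeugopod and autopod cells of the wild-type and Dup libraries, with 95% Poisson intervals as bars. Hoxa11, Ebf1, Crabp1 and Nr2f2 are highest in zeugopod cells in both libraries, while Meis2, Irx3 and Col3a1 fall and Hoxa13 and Hoxd13 climb from stylopod to autopod.

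The general limb mesenchyme genes were all present. Prrx1, a homeobox gene of limb mesenchyme, was at 637 and 579 CPM in wild-type and Dup zeugopod cells against 308 and 316 in autopod cells. Prrx2 was at 334 and 395 and Twist1, a basic helix-loop-helix factor, at 311 and 380.00. The hindlimb genes Pitx1 and Tbx4 were measured at 352 and 317 CPM and 60.2 and 42.9 CPM, and Isl1, active early in the hindlimb field, at 16.4 and 21.1. Early genes of cartilage and tendon were present. The cartilage list summed to 698 and 584 CPM and the tendon list to 272 and 291 CPM, with the tendon factor Scx at 189 and 165. Among genes of later stages, Acan, the main cartilage proteoglycan, had 0 UMIs in both libraries, Matn1 had 1 UMI in the wild type and 0 in Dup, and Tnmd, a gene of maturing tendon, had 0 in the wild type and 3 in Dup, where 3 counts is taken as the limit that a count of 0 allows.

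Even the genes that stood highest over both neighbours in both libraries had a smallest ratio under 2-fold, at a mean of 50 CPM or more and with 50 CPM added. The rule took the 12 genes whose smallest ratio over both neighbours and both libraries was highest. Beside Hoxa11 they were led by Ebf1, a helix-loop-helix transcription factor of connective tissue, at 858 (835 to 881) and 896 (877 to 915) CPM in wild-type and Dup zeugopod cells, against 290.1 and 419 in stylopod and 500.2 and 484 in autopod cells. Crabp1, a cytosolic retinoic acid binding protein, was at 284 and 286 CPM against 162 and 177 and 165 and 113. The nuclear receptor Nr2f2 was at 145 and 162 CPM against 90.1 and 104 and 79.4 and 80.8. These genes share the zeugopod peak with Hoxa11 in both libraries.

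The rest of the group had smaller margins. Zfp503, a zinc finger repressor, was at 70.2 and 109 CPM against 30.3 and 42.3 in stylopod and 43.8 and 49.8 in autopod cells. Hoxa10, which lies next to Hoxa11, was at 339 and 305 CPM against 255 and 232 and 266 and 189. Cited2, Eml4, Rasl11b, 2310009B15Rik and an unnamed gene with the identifier ENSMUSG00000096984 were also in it. Among list members under the 50 CPM level that the rule used, Dkk2, a secreted Wnt modulator, had the same shape at 20.6 and 19.5 CPM against 12.0 and 13.2 and 2.40 and 3.18, as did Pax9, a paired box gene of the anterior bud, at 24.5 and 34.5 CPM against 8.45 and 14.4 and 1.80 and 0.920.

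A matching group of 8 genes was lower in zeugopod than in both neighbours. Serpine2, a secreted protease inhibitor, was at 45.1 and 55.5 CPM in wild-type and Dup zeugopod cells against 85.0 and 67.6 in stylopod and 119 and 107 in autopod cells. Hes1, a Notch target repressor, was at 81.9 and 70.4 CPM against 99.9 and 87.6 and 114 and 82.9. Nsg1, Mapre1, Tsen15, Cdv3, Sfxn1 and Dynll2 had smaller margins. Aldh1a2, the enzyme that makes retinoic acid and a member of the retinoic acid list, was also lowest in zeugopod cells, at 2.94 and 3.18 CPM against 28.9 and 33.2 in stylopod and 9.89 and 13.4 in autopod cells.

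Against autopod, 38 of 3077 genes (1.23%) with a mean of 50 CPM or more were higher in zeugopod cells by 1.5-fold or more in both libraries, and 5 (0.162%) were lower, on a scale with 50 CPM added to each value. Shox2 was 4.80 (4.07 to 5.69) times as high in wild-type and 8.64 (7.55 to 9.93) times as high in Dup cells. The fibrillar collagen genes followed, Col3a1 at 297 and 222 CPM against 64.7 and 59.0 and Col1a2 at 291 and 239.7 against 77.0 and 50.5. The group also held the imprinted genes Peg3 (538 and 373 CPM against 198 and 103), Meg3, Dlk1 and H19, and the zinc finger genes Zfhx4 and Tshz2.

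The genes lower than in autopod were led by Hox genes of the foot. Hoxd13 was at 25.0 and 36.5 CPM in wild-type and Dup zeugopod cells against 283 and 285 in autopod cells, a ratio of 0.0884 (0.0740 to 0.105) and 0.128 (0.115 to 0.143). Hoxd12 was at 23.9 and 22.6 CPM against 134 and 133, and Hoxa13 at 44.8 and 77.0 against 191 and 169. Lhx2, a LIM homeobox gene of the distal bud, was at 53.3 and 58.8 CPM against 146 and 109.8. Msi2, an RNA binding protein gene, and Lnp, which neighbours the HoxD cluster, were lower as well, at 59.2 and 55.6 CPM against 165 and 132 and 65.6 and 60.3 against 131 and 134.

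Against stylopod, 11 of 3170 genes (0.347%) were higher in zeugopod cells in both libraries and 35 (1.1%) were lower. Ebf1, Prrx2 and Hoxd11 led the higher group, Hoxd11 with ratios of 3.53 (3.17 to 3.94) and 2.48 (2.19 to 2.82). Cyp26b1, which breaks down retinoic acid, was at 113 and 83.1 CPM against 33.5 and 26.1. The distal genes Lhx9 (200.4 and 187 CPM against 89.0 and 96.5), Msx1 (114 and 146 against 53.8 and 45.1) and Hand2, a posterior bud factor (149 and 167 against 77.2 and 56.7), were in the same group.

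Proximal genes led the opposite group. Meis2 was at 73.9 (67.3 to 81.1) CPM in wild-type and 28.3 (25.0 to 31.9) CPM in Dup zeugopod cells, against 455 and 284 in stylopod cells. Meis1 was at 18.8 and 7.31 CPM against 131 and 69.6. Irx3, an Iroquois homeobox gene of the proximal and anterior bud, was at 12.6 and 4.66 CPM against 119.9 and 73.7. Pkdcc, a secreted kinase needed for long bone growth, was at 20.1 and 8.37 against 219.8 and 133, and the secreted Wnt antagonist Sfrp1 at 40.9 and 23.4 against 154 and 118. The group also held Itm2a, Fibin, Sfrp2, Igfbp5 and Tbx18.

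Zeugopod cells lay between their neighbours for most genes that differed along the axis. Of 3113 genes, 38 were higher in autopod than stylopod by 1.5-fold or more in both libraries, and 34 of them took an intermediate value in zeugopod cells in both. Nrp2, a semaphorin and VEGF co-receptor, was above both neighbours. Of 96 genes higher in stylopod than autopod, 90 were intermediate and Dnm3os, a non-coding transcript, was above both. With stylopod as 0% and autopod as 100% on the log2 scale with 50 CPM added, the median gene of the first group stood at 37.3% in the wild type and 43.1% in Dup, and the median gene of the second at 41.0% and 49.5%. This position is a description of genes chosen by the same counts.

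Lists of genes by role gave the same picture at 10 CPM or more without the added 50 CPM, where 306 of 7786 genes (3.93%) were higher and 76 (0.976%) lower than in autopod by 1.5-fold or more in both libraries, and 86 (1.07%) higher and 168 (2.09%) lower of 8020 than in stylopod. All 3 measured Hox12 and Hox13 genes (of 5) were lower than in autopod and higher than in stylopod cells. Of the cartilage genes, 8 of 9 measured (21 in the list) were higher than in autopod and 6 of 11 lower than in stylopod cells. Sox9, the master regulator of cartilage, was at 206 and 147 CPM in wild-type and Dup zeugopod cells against 378 and 294 in stylopod and 95.6 and 69.7 in autopod cells, and Col2a1, the main cartilage collagen gene, at 92.3 and 72.3 against 179.9 and 141 and 16.8 and 14.9.

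Of the connective tissue genes, 9 of 13 measured (18 in the list) were higher than in autopod and 2 lower than in stylopod cells. Of the insulin-like growth factor genes, 6 of 8 were higher than in autopod and 1 lower than in stylopod, and of the proximal factors 2 of 4 were higher than in autopod and 6 of 7 lower than in stylopod. All 6 measured distal progenitor factors were higher than in stylopod cells. Of the FGF/ERK feedback targets, which report fibroblast growth factor signalling, 3 of 9 were lower than in autopod. Spry4, one of them, was at 3.76 and 3.81 CPM in zeugopod against 25.5 and 12.5 in autopod cells, and Etv4, another, at 14.7 and 13.9 against 41.4 and 42.3. None of 14 S phase and 14 G2/M genes passed 1.5-fold against either neighbour in both libraries. By any amount, all 14 G2/M genes were lower than in autopod in each library, with median log2 ratios of -0.299 in the wild type and -0.328 in Dup. Of the S phase genes 12 and 11 were lower, where 3639 and 3363 of 7786 genes were. Against stylopod, 12 and 13 of the G2/M genes were higher.

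Single cells held the markers unevenly. A Hoxa11 UMI was found in 67.6% (63.8 to 71.2) of wild-type and 47.1% (44.4 to 49.8) of Dup zeugopod cells. For Hoxd11 the shares were 65.2% (61.4 to 68.9) and 45.6% (42.9 to 48.3), and for Shox2 68.3% (64.6 to 71.9) and 46.8% (44.1 to 49.5). Since Dup cells were shallower, each cell was also thinned to 4000 UMIs, which left out 9 wild-type and 6 Dup cells. The shares were then 47.1% and 34.9% for Hoxa11, 47.9% and 35.6% for Hoxd11, and 48.3% and 37.0% for Shox2. Immune and endothelial cells, which should lack these genes, gave thinned shares of 3.70% and 4.65%, 7.41% and 5.81%, and 14.8% and 10.5%, so the zeugopod shares were above this background in both libraries. As deposited, with median depths of 12306 and 9441 UMIs, the same background cells gave 18.5% and 12.8% for Hoxa11, 18.5% and 22.1% for Hoxd11 and 25.9% and 16.3% for Shox2.

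All 3 markers were found together in 33.2% of wild-type and 13.1% of Dup zeugopod cells as deposited and in 10.7% and 6.11% at equal depth. None of the 3 was found in 4.23% (2.81 to 6.10) and 19.1% (17.0 to 21.3) as deposited and in 14.9% and 29.4% at equal depth. The autopod gene Hoxa13 went the other way, with 22.6% and 32.1% as deposited and 12.7% of wild-type and 21.8% of Dup cells at equal depth against a background of 9.26% and 8.14%. The Meis2 shares were 25.1% and 10.6% as deposited and 16.5% and 7.45% at equal depth. Immune and endothelial cells gave 7.41% (2.06 to 17.9) and 6.98% (2.60 to 14.6), near the Dup share. Autopod cells gave less, 5.83% and 1.43%, so these background cells set no floor for Meis2. Whether the Dup share reflects free RNA was not tested.

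The label joined 5 of the deposited clusters, each of which held zeugopod cells and no others. Cluster 2 (205 wild-type and 405 Dup cells) was led by Meox2, Nbl1 and Tpm1. Cluster 3 (172 and 406 cells) was led by Msx1, Dach1 and Prrx2, with Lhx2, Lhx9 and Pax9. Cluster 6 (125 and 288 cells) had Tbx3, Tbx2 and Igfbp4 among its leading genes, with Hand2 and Hoxc11. Cluster 12 (52 and 170 cells) was led by the division genes Cenpe and Nusap1 and by histone genes, and cluster 15 (84 and 79 cells) by Hsd11b2, Col9a2 and Peg10, with Hoxd9. The leading genes come from the counts that were clustered, so they describe the clusters and test nothing.

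Hoxd11 differed more among the clusters than Hoxa11. Wild-type and Dup levels of Hoxd11 were 283 and 226 CPM in cluster 2, 101 and 41.5 CPM in cluster 3, 288 and 174 CPM in cluster 6, 247 and 159.9 CPM in cluster 12 and 468 and 266 CPM in cluster 15. Hoxa11 stayed between 147 and 109 CPM in cluster 3 and 242 and 159 CPM in cluster 6. Cluster 3 was thus the lowest for both genes, and cluster 15 was the highest for Hoxd11 and cluster 6 for Hoxa11 in the wild type and in Dup. Meis2 was present mostly in clusters 2 (119 and 48.2 CPM) and 6 (126 and 45.3 CPM), and Sox9 was highest in cluster 15 (528 and 561 CPM) and lowest in cluster 2 (112 and 60.8 CPM).

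**Figure D2:**
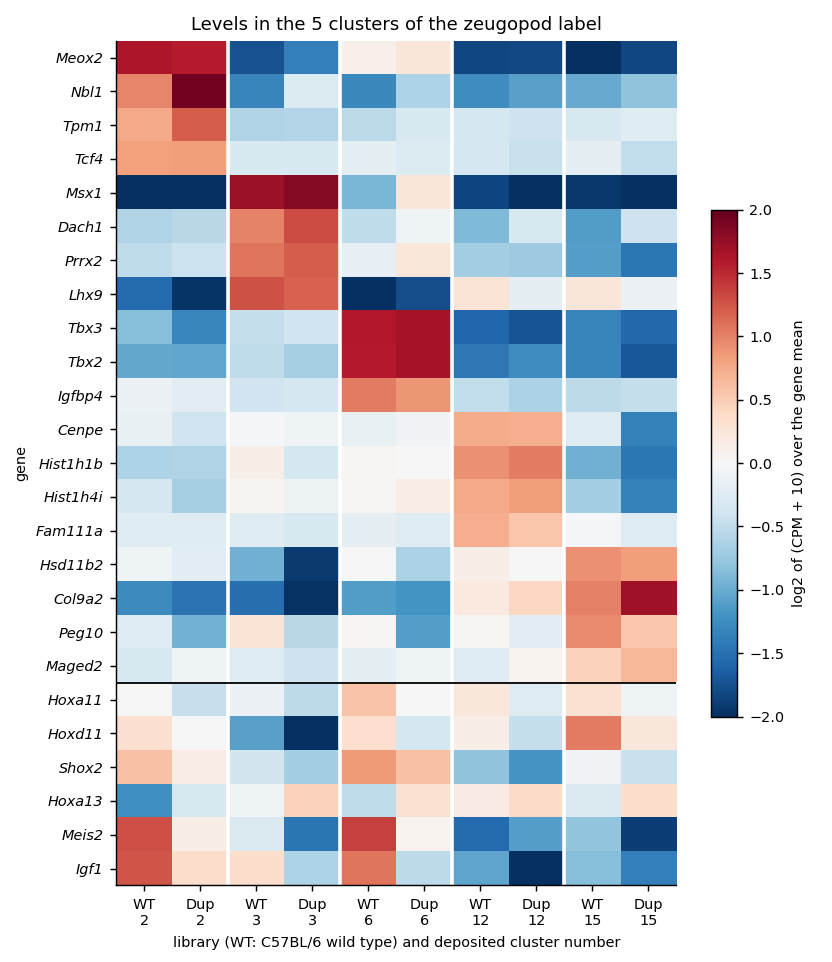
Heat map of log2 (CPM + 10) minus the gene's mean for named genes (rows) in the 5 clusters inside the zeugopod label, wild-type and Dup columns side by side, with differences past 2 shown in the end colours. Cluster 3 has the lowest Hoxd11 in both libraries, and in each cluster the Dup column is lower than the wild-type column for Hoxa11, Hoxd11 and Igf1 and higher for Hoxa13.

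Zeugopod cells made up a like share of both libraries. They were 28.4% (26.5 to 30.3) of 2249 wild-type cells and 29.0% (27.7 to 30.3) of 4648 Dup cells, a ratio of 1.02 (0.930 to 1.13). Of the cells in the 3 segment labels they were 38.6% (36.3 to 41.0) and 37.5% (35.9 to 39.1), a ratio of 0.972 (0.884 to 1.07). The neighbouring labels were not equal, with stylopod at 30.6% and 16.7% and autopod at 14.5% and 31.6% of all cells. Finer clusters held mostly by another label contained 48 of 638 wild-type (7.52%) and 180 of 1348 Dup (13.4%) zeugopod cells, so more of the Dup label lay at a border. With 1 library per group these shares have no spread to compare with.

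Few genes of moderate level differed by much between wild-type and Dup zeugopod cells. Of 3125 genes with a mean of 50 CPM or more, 2 (0.064%) were higher in Dup by 1.5-fold or more and 4 (0.128%) lower, with 50 CPM added. The higher were Fos and Jun, and the lower were Igf1, Meis2, Gm10076 and Hoxd11. Without the added 50 CPM and from 10 CPM up, 63 of 7909 genes (0.797%) were higher by that fold and 127 (1.61%) lower, while 38.9% were higher and 61.1% lower by any amount and the median log2 ratio was -0.05. In stylopod cells 7 genes were higher and 3 lower of 3209 by the first rule, and in autopod cells 2 and 6 of 3029.

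**Figure D3:**
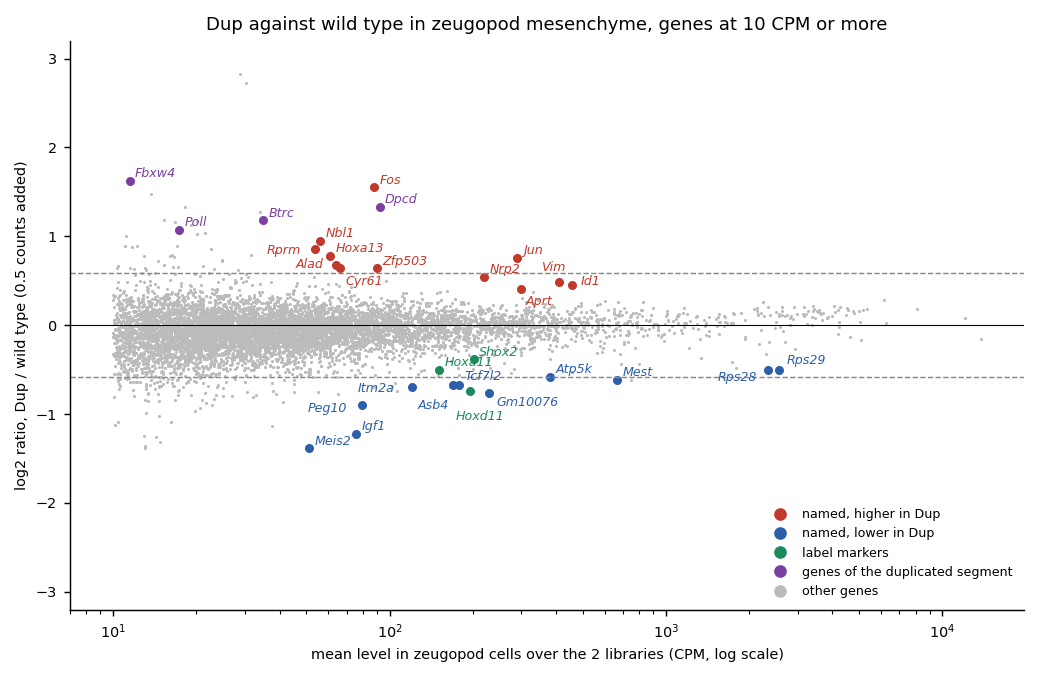
Log2 ratio of Dup to wild-type CPM in zeugopod cells against the mean CPM (log axis) for genes at 10 CPM or more, with dashed lines at 1.5-fold. Most genes lie inside the lines, while Btrc, Dpcd, Fos and Fbxw4 lie above and Igf1, Meis2 and Hoxd11 below.

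Genes inside the duplication were checked first. On NCBIM37 (mm9) they run along chromosome 19 from Lbx1 (chr19:45307178-45310301, minus strand) over Btrc (chr19:45438224-45607831), Poll, Dpcd and Fbxw4 (chr19:45652744-45734802, minus strand), with Fgf8 beyond them (chr19:45811288-45817405, minus strand). Btrc, a subunit of a ubiquitin ligase that acts on beta-catenin, stood at 21.3 CPM in wild-type and 48.3 CPM in Dup zeugopod cells (ratio 2.27, 1.87 to 2.78). Poll, a DNA polymerase gene, was at 11.1 CPM in wild-type and 23.5 CPM in Dup (ratio 2.11, 1.60 to 2.82). Dpcd, a gene linked to cilia, was at 52.3 CPM in wild-type and 132 CPM in Dup (ratio 2.52, 2.23 to 2.86), and Fbxw4, an F-box gene, at 5.56 CPM in wild-type and 17.4 CPM in Dup (ratio 3.12, 2.15 to 4.66). All 4 were thus at or above 2-fold in Dup zeugopod cells, with ratios of 1.98 to 2.19 in stylopod and 1.90 to 2.19 in autopod cells, and each was higher in 5 of 5 clusters.

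The other genes at the locus were near the limit of detection here. Lbx1, a homeobox gene of migrating muscle precursors, had 14 UMIs in wild-type and 4 in Dup zeugopod cells, or 2.29 and 0.424 CPM (ratio 0.185, 0.0443 to 0.589). Its direction was opposite to that of the other duplicated genes, and the summed muscle markers were lower in Dup zeugopod cells too (above). Whether they move together for one reason was not tested. Fgf8, which lies outside the duplication and is known as the ligand of the apical ectodermal ridge, had 22 and 60 UMIs (3.60 and 6.35 CPM, ratio 1.77, 1.07 to 3.02), levels at which free RNA from the ridge cannot be told apart from expression.

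The group 11 Hox genes were all lower in Dup zeugopod cells. Hoxd11 lies in the HoxD cluster on chromosome 2 (NCBIM37 chr2:74517449-74525798) and Hoxa11 in the HoxA cluster on chromosome 6 (chr6:52192107-52196213, minus strand). Hoxd11 was at 246 CPM in wild-type and 147 CPM in Dup cells (ratio 0.597, 0.555 to 0.643), and Hoxa11 at 177 and 125 (ratio 0.707, 0.651 to 0.769). Hoxc11 was at 56.4 and 33.6 (ratio 0.595, 0.509 to 0.695). Each was lower in 5 of 5 clusters, with cluster ratios of 0.410 to 0.799 for Hoxd11, 0.659 to 0.747 for Hoxa11 and 0.376 to 0.759 for Hoxc11. In the neighbours the ratios were 0.850, 0.944 and 0.896 in stylopod and 0.725, 0.397 and 0.448 in autopod cells. Shox2 was lower as well, at 229 and 175 CPM (ratio 0.766, 0.713 to 0.823), lower in 5 of 5 clusters, and its ratio in stylopod cells was 1.18. In autopod cells Shox2 was lower in Dup too (levels above).

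The lower paralogous groups went the same way. All 6 of the Hox9 and Hox10 genes were lower in Dup, 2 of them by 1.5-fold or more, where 61.1% and 1.61% of all genes were. Their median log2 ratio was -0.56 against -0.05 over all genes. Hoxc9 was at 34.4 and 19.7 CPM (ratio 0.573, 0.468 to 0.702), Hoxd10 at 49.1 and 28.7 (ratio 0.585, 0.494 to 0.692) and Hoxc10 at 106 and 71.5 (ratio 0.677, 0.606 to 0.755). Hoxa9 and Hoxa10 had milder ratios of 0.781 and 0.899. Genes from the HoxA, HoxC and HoxD clusters, on separate chromosomes, were thus all represented. The decrease was not particular to zeugopod cells. All 6 were lower in Dup autopod cells too, 4 by 1.5-fold or more (227 of 7637 genes were), with a median log2 ratio of -0.766. All 6 were also lower in Dup stylopod cells, 0 by that fold, with a median of -0.138.

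Of the foot Hox genes, Hoxa13 was higher in Dup zeugopod cells. It was at 44.8 (39.7 to 50.5) CPM in wild-type and 77.0 (71.5 to 82.8) CPM in Dup cells (ratio 1.72, 1.49 to 1.98) and was higher in 5 of 5 clusters, from 1.18 (0.801 to 1.78) in cluster 12 to 2.25 (1.59 to 3.24) in cluster 2. In autopod cells, where it is highest, its ratio was 0.883. Hoxd13 was at 25.0 and 36.5 CPM (ratio 1.46, 1.20 to 1.78) and higher in 3 of 5 clusters. At equal depth its UMIs were found in 8.11% of wild-type and 10.7% of Dup zeugopod cells. Immune and endothelial cells gave 11.1% (4.19 to 22.6) and 9.30% (4.10 to 17.5), and stylopod cells gave less, 4.57% and 6.34%. These background cells thus set no floor, and whether the zeugopod Hoxd13 UMIs were free RNA was not tested. Hoxd12 was at 23.9 and 22.6 (ratio 0.945, 0.762 to 1.17). Over the 8 alternatives, 1 of which left out the cells in finer clusters of another label, the Hoxa13 ratio was 1.52 to 1.83 and the Hoxd13 ratio 1.17 to 2.41. The part of the larger autopod share of the Dup library (above) in these ratios was not tested.

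Proximal factors were lower in Dup zeugopod cells. All 5 measured members of 9 were lower and 3 passed 1.5-fold, with a median log2 ratio of -0.78. Among all genes 61.1% were lower and 1.61% were lower by that fold. Meis2 was at 73.9 CPM in wild-type and 28.3 CPM in Dup cells (ratio 0.382, 0.328 to 0.446), Meis1 at 18.8 and 7.31 CPM (ratio 0.388, 0.284 to 0.528) and Irx3, under the 10 CPM level, at 12.6 and 4.66 (ratio 0.370, 0.249 to 0.543). Meis2 was lower in 4 of 5 clusters, the exception being cluster 12 with 4 and 16 UMIs, and Meis1 was lower in 5 of 5. Of the Meis partners, Pbx3 was at 41.7 and 24.3 CPM (ratio 0.581, 0.484 to 0.698) and Pbx2 at 113 and 107 (ratio 0.955, 0.866 to 1.05). Meis2, Meis1 and Irx3 were also lower in Dup stylopod cells, with ratios of 0.625, 0.532 and 0.615.

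**Figure D4:**
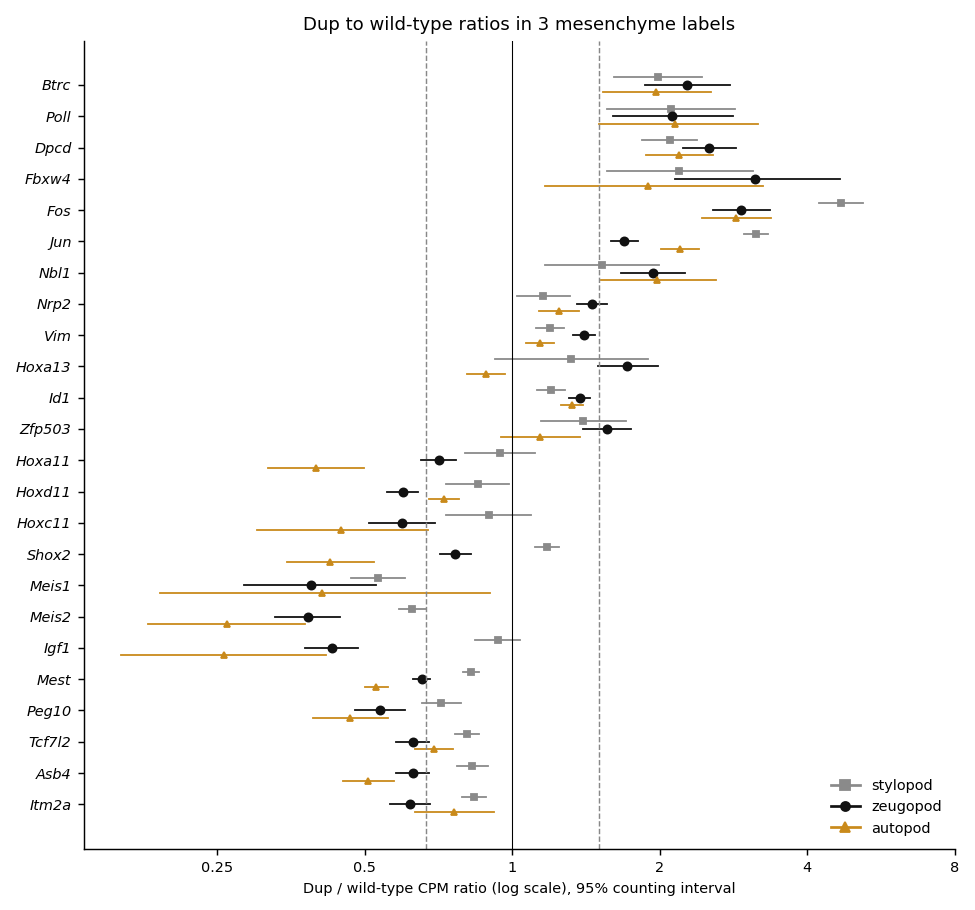
Dup to wild-type ratio of CPM (log axis, with 95% intervals) of 24 genes in stylopod, zeugopod and autopod cells. The duplicated genes and Fos and Jun are above 1 in all 3 labels, the group 11 Hox genes and Meis genes are below 1, and Hoxa13 is above 1 in zeugopod and below 1 in autopod cells.

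Igf1, a growth factor of the insulin-like family, was lower in Dup zeugopod cells at 45.4 (41.2 to 49.9) CPM against 106 (98.1 to 114.6) CPM in the wild type (ratio 0.428, 0.378 to 0.484). It was lower in 5 of 5 clusters, with ratios of 0.190 to 0.602. In stylopod cells, where Igf1 was at 134 and 125 CPM, the ratio was 0.934, and in autopod cells, at 11.7 and 3.01 CPM, it was 0.258. All 8 measured members of the insulin-like growth factor list were lower, 1 of them (Igf1) by 1.5-fold or more, with a median log2 ratio of -0.31. Of all genes, 61.1% were lower and 1.61% were lower by that fold. Igf2 was at 48.1 and 36.8 CPM (ratio 0.764, 0.652 to 0.896) and the receptor gene Igf1r at 108 and 84.8 (ratio 0.782, 0.705 to 0.868).

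Cartilage genes were modestly lower and matrix genes were mixed. Of 10 measured cartilage genes (21 in the list) 9 were lower and 0 passed 1.5-fold, with a median log2 ratio of -0.17 against -0.05 over all genes, of which 61.1% were lower. Sox9 was at 206 and 147 CPM (ratio 0.713, 0.660 to 0.770), lower in 4 of 5 clusters and at 1.06 (0.902 to 1.25) in cluster 15, where it is highest, and Col2a1 was at 92.3 and 72.3 (ratio 0.784, 0.700 to 0.878). Over the alternatives, 1 of which weighted the clusters equally, the ratio was 0.568 to 0.875 for Sox9 and 0.608 to 0.977 for Col2a1. Cluster 15 held 13.2% of wild-type and 5.86% of Dup zeugopod cells. The part of this mix of clusters in the cartilage ratios was not tested. Of 13 measured connective tissue genes (18 in the list) 4 were higher and 9 lower, a share near that over all genes. Lum, a small proteoglycan of loose connective tissue, was higher at 21.6 and 48.2 CPM (ratio 2.23, 1.83 to 2.73), while Col3a1 was lower at 297 and 222 (ratio 0.746, 0.700 to 0.795) and Col1a2 at 291 and 239.7 (ratio 0.824, 0.774 to 0.877). Osr1 and Osr2, factors of irregular connective tissue, had ratios of 0.724 and 0.704. Of 4 measured tendon genes (7 in the list) 2 were lower, Scx with a ratio of 0.874 and Tgfb2, a growth factor gene, with 0.739, and 2 were higher by 1.5-fold or more. The latter were Dcn, a small proteoglycan, at 10.3 and 23.2 CPM (ratio 2.25, 1.69 to 3.03) and Egr1, which the immediate early list (below) holds as well. The tendon list had a median log2 ratio of 0.48.

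Signalling genes moved little as groups. Of 8 measured BMP genes 5 were higher and 3 lower, with a median log2 ratio of 0.13. Bmp2 was at 9.49 and 16.3 CPM (ratio 1.72, 1.26 to 2.37) and the BMP target gene Id1 at 386 and 529 (ratio 1.37, 1.31 to 1.44), both higher in 5 of 5 clusters. Of 8 measured FGF/ERK feedback targets 7 were lower and 0 passed 1.5-fold, with a median log2 ratio of -0.25, where 61.1% of all genes were lower. Il17rd was at 60.4 and 42.4 CPM (ratio 0.702, 0.608 to 0.811) and Dusp6, a phosphatase of ERK, at 85.9 and 68.9 (ratio 0.803, 0.715 to 0.902), and Dusp6 was 0.525 of the wild-type level in autopod cells. Of 5 measured genes of the Shh pathway and the posterior bud 4 were lower, a count too small to set apart from that share, among them Grem1, a BMP antagonist, at 28.1 and 15.4 CPM (ratio 0.546, 0.435 to 0.685) and the Shh target Ptch1 at 47.6 and 37.4 (ratio 0.785, 0.671 to 0.920).

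Of 11 measured Wnt genes 5 were higher and 6 lower. Sfrp1 and Frzb, both secreted antagonists, were lower at 40.9 and 23.4 CPM (ratio 0.572, 0.475 to 0.689) and 77.0 and 51.3 CPM (ratio 0.665, 0.585 to 0.757), and Wif1, another antagonist, was higher at 39.1 and 51.4 (ratio 1.31, 1.12 to 1.54). Of 7 measured retinoic acid genes 3 were higher and 4 lower, with Cyp26b1 at 113 and 83.1 CPM (ratio 0.737, 0.664 to 0.817). Of 11 measured Eph receptors and ephrins 3 were higher and 8 lower. Epha3, an Eph receptor, was the exception in size, at 6.71 (4.81 to 9.10) CPM in wild-type and 22.3 (19.4 to 25.6) CPM in Dup zeugopod cells (ratio 3.33, 2.38 to 4.78), higher in 5 of 5 clusters, with ratios of 1.10 in stylopod and 2.25 in autopod cells.

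Other genes named by the rule as higher in Dup were Nbl1, a secreted BMP antagonist, at 38.3 CPM in wild-type and 74.0 CPM in Dup zeugopod cells (ratio 1.93, 1.67 to 2.25), and Nrp2 at 179 and 260.4 CPM (ratio 1.46, 1.35 to 1.56). Rprm, a cell cycle arrest gene, was at 38.3 and 69.6 (ratio 1.82, 1.56 to 2.12), Zfp503 at 70.2 and 109 (ratio 1.56, 1.39 to 1.75) and the intermediate filament gene Vim at 342 and 480.4 (ratio 1.40, 1.33 to 1.48). Nbl1, Nrp2, Rprm and Vim were higher in 5 of 5 clusters and Zfp503 in 4. Alad and Aprt, enzymes of haem and purine metabolism, had ratios of 1.61 and 1.33.

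The genes named as lower included Mest and Peg10, both imprinted and expressed from the paternal allele, at 807 and 527 CPM (ratio 0.654, 0.628 to 0.680) and 104 and 55.7 CPM (ratio 0.538, 0.478 to 0.605). Of the imprinted genes named above, Peg3 had a ratio of 0.693, while Meg3, H19 and Dlk1 had 0.981, 0.948 and 0.927. Asb4, a gene of the ankyrin repeat and SOCS box family, was at 209 and 131 (ratio 0.626, 0.579 to 0.678), Tcf7l2, a Wnt pathway transcription factor, at 219 and 137 (ratio 0.627, 0.580 to 0.677) and Itm2a at 149 and 92.1 (ratio 0.619, 0.563 to 0.680). Mest, Peg10, Asb4, Tcf7l2 and Itm2a were lower in 5 of 5 clusters, and their ratios in stylopod cells were 0.809 for Tcf7l2, 0.823 for Mest, 0.829 for Asb4, 0.835 for Itm2a and 0.716 for Peg10. Rps29, Rps28, Gm10076 and Atp5k had ratios of 0.706, 0.706, 0.588 and 0.669 in zeugopod cells and of 0.604 to 0.690 in stylopod cells, and Rps28, Rps29 and Gm10076 belong to ribosomal families with near-identical copies, so how reads were split among copies is uncertain.

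Immediate early genes, which dissociation is known to induce, were higher in Dup. All 10 measured members of 14 were higher in Dup zeugopod cells and 5 passed 1.5-fold, with a median log2 ratio of 0.57. Among all genes 38.9% were higher and 0.797% were higher by that fold. Fos was at 44.7 CPM in wild-type and 131 CPM in Dup cells (ratio 2.93, 2.57 to 3.35), Jun at 215 and 364 CPM (ratio 1.69, 1.59 to 1.80) and Egr1 at 7.03 and 50.3 (ratio 7.15, 5.23 to 10.0). The summed level of the list was 1069 and 1502 CPM in zeugopod cells, 1219.9 and 2856 in stylopod cells and 1033 and 1645 in autopod cells. This difference between the libraries was present in all 3 labels and was larger in stylopod than in zeugopod cells. In stylopod cells the ratios of Igf1 (0.934), Hoxa11 (0.944) and Shox2 (1.18) were nearer to or above 1. In autopod cells, where the list was higher in Dup too, Igf1, Hoxa11 and Shox2 were lower in Dup (above). Other genes lower in Dup zeugopod cells, Meis2, Meis1 and Irx3 (above), were lower in Dup stylopod cells too. All 7 measured proximal factors were lower there, 4 of them by 1.5-fold or more. The part of the immediate early genes in the other differences was not tested, nor was that of the lower depth of Dup cells.

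Genes of the cell cycle and of the p53 response did not separate the libraries as groups. Of 14 S phase genes 5 were higher and 9 lower in Dup zeugopod cells, and of 14 G2/M genes 7 were higher and 7 lower, with median log2 ratios of -0.03 and 0.00 and 0 members past 1.5-fold in either list. Mki67 was at 106 and 93.3 CPM (ratio 0.882, 0.796 to 0.977), and Ube2c, which acts in mitotic exit, at 546 and 661 (ratio 1.21, 1.16 to 1.26). Of 7 measured p53 targets 2 were higher and 5 lower. Zmat3 was lower at 17.2 and 9.53 CPM (ratio 0.555, 0.414 to 0.743) and Mdm2 had a ratio of 0.984.

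Of the remaining lists, the hindlimb identity genes had 1 higher and 2 lower of 3 measured, with Tbx4 at 60.2 and 42.9 CPM (ratio 0.713, 0.617 to 0.823) and Pitx1 at 352 and 317 (ratio 0.901, 0.852 to 0.953). The distal progenitor factors had 6 higher and 1 lower of 7 measured, 0 past 1.5-fold, where 38.9% of all genes were higher. Msx1 was at 114 and 146 (ratio 1.29, 1.17 to 1.41). The general mesenchyme genes had 2 higher and 4 lower of 6. Pdgfra, a growth factor receptor gene of mesenchyme, was at 126 and 78.2 CPM (ratio 0.621, 0.561 to 0.688) and Twist1 at 311 and 380.00 (ratio 1.22, 1.15 to 1.29). Of the anterior genes 2 were higher and 2 lower of 4 measured, with Pax9 at 24.5 and 34.5 (ratio 1.41, 1.16 to 1.72). Lmx1b, the dorsal limb factor, was at 22.6 and 30.4 CPM (ratio 1.35, 1.10 to 1.66) and higher in 5 of 5 clusters.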

How the data were processed

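The deposited matrix holds UMI counts of genes in cells. Per the methods, the authors ran Cell Ranger version 3 against their own mm9 reference, and mm10 stands beside mm9 in the submitters' processing notes. The authors kept cells above 2000 detected genes and below 10% mitochondrial UMIs, removed doublets by Scrublet score, normalised each library by SCT, integrated both with Seurat and named Louvain clusters by marker genes. These deposited labels were used, and doublets were not called again. The 15668 gene rows hold no mitochondrial gene.

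Cells without more than 2000 detected genes (4 wild-type, 43 Dup) were left out. Counts were summed per label and library and scaled to CPM. Haemoglobin, Xist, Y-linked and locus genes were left out of gene rankings and of gene counts with 50 CPM added and their alternatives. Intervals are exact Poisson (levels), Clopper-Pearson (shares) and conditional binomial (ratios), at 95%. A depth of 6113530 and 9442041 UMIs stands behind the zeugopod levels. Named genes were the 12 highest and 8 lowest against both labels, the 10 highest and 10 lowest against each, and the 12 highest and 12 lowest Dup to wild-type ratios, at 50 CPM or more with 50 CPM added, beside locus genes and 32 role lists (282 of 289 genes had a row). List counts used 10 CPM or more and 0.5 counts added. Members and lists were chosen with earlier results of these data known. A few genes that the rules named are not reported here. The 13 per-cell columns other than labels and clusters were not used. Alternatives changed the fold, level, added value, scaling, thinning and cell filters. Python 3.11.15, numpy 2.4.6, scipy 1.17.1, pandas 2.3.3 and matplotlib 3.10.9 were used, and the ratio calculation was tested on simulated data.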

Additional observations from a re-analysis of the deposited data

Results flagged for a closer look

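The Dup to wild-type ratio of 18 flagged genes lay on one side of 1 in zeugopod cells and on the other side in a neighbouring label. They are not all the genes that changed side. Of 14 G2/M genes, for one, 7 were higher in Dup in zeugopod, 10 in autopod and 4 in stylopod cells. The 18 hold no G2/M gene. Each label has 1 library per genotype, so the differences were not tested.

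Against stylopod, 12 of the flagged genes pointed in opposite directions. Of the genes lower in Dup zeugopod cells, Shox2 had a ratio of 0.766 in zeugopod and 1.18 in stylopod cells, Osr1 0.724 and 1.73, Col3a1 0.746 and 1.07, Igfbp5 0.797 and 1.18, Sfrp2 0.853 and 1.16, Scx 0.874 and 1.08, Pitx1 0.901 and 1.44, and Prrx1 0.908 and 1.24. Of the genes higher in Dup zeugopod cells, Msx1 had 1.29 and 0.838, Serpine2 1.23 and 0.795, Rspo3, a Wnt pathway agonist, 1.17 and 0.771, and Hand2 1.12 and 0.735.

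Against autopod, 6 of the flagged genes did so. Hoxa13 had a ratio of 1.72 in zeugopod and 0.883 in autopod cells, Fgf8 1.77 and 0.378, Isl1 1.29 and 0.430, Id3 1.16 and 0.949, Osr2 0.704 and 1.64, and Tcf4 0.952 and 1.10. Fgf8 rests on few UMIs in each label. For 4 of the 18 genes the zeugopod ratio itself lay on both sides of 1 over the alternatives, 0.684 to 1.03 for Igfbp5, 0.802 to 1.05 for Sfrp2, 0.977 to 1.33 for Rspo3 and 0.880 to 1.07 for Tcf4.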

How the results depend on the processing

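Of 228 single-gene Dup to wild-type ratios in zeugopod cells, 135 had an interval off 1, and 12 of those lay on the other side of 1 under at least 1 alternative: Ebf1, Zfhx4, H19, Sfrp2, Igfbp5, Tcf4, Ptch1, Pax9, Rspo3, Mki67, Top2a and Bub1. Of the 43 that were past 1.5-fold with an interval off 1, 0 did so. Over the alternatives the ratio was 0.530 to 0.738 for Hoxa11, 0.528 to 0.626 for Hoxd11, 0.314 to 0.504 for Meis2, 0.384 to 0.639 for Igf1 and 2.46 to 3.26 for Fos. With the 3 segment labels as denominator the zeugopod share was 38.6% and 37.5% in place of 28.4% and 29.0%. With more than 3000 detected genes, which kept 314 wild-type and 216 Dup cells, the Dup share was 22.3% and the ratio of shares 0.793.

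The counts of genes moved with the fold, the added value and the level. Higher in Dup were 2 genes, but 1 with the mean of per-cell CPM, 4 from 20 CPM up, 6 with 10 CPM added and 0 at a fold of 2. Lower in Dup were 4, but 1 in cells with a UMI of Hoxa11 or Hoxd11 (541 wild-type and 932 Dup cells), 2 with the clusters weighted equally (an alternative chosen after seeing the data), 2 with median-of-ratios size factors, 14 with 10 CPM added and 0 at a fold of 2. Higher than autopod were 38, but 68 with 10 CPM added and 7 at a fold of 2. Lower than autopod were 5, but 12 with the clusters weighted equally, 8 with median-of-ratios, 15 with 10 CPM added and 2 at a fold of 2. Higher than stylopod were 11, but 18 from 20 CPM up, 18 with 10 CPM added and 1 at a fold of 2. Lower than stylopod were 35, but 10 at a fold of 2. A higher fold and a smaller added value change these counts by their construction, and for the other settings the cause was not tested. The log2 shift of median-of-ratios scaling, Dup against wild type, was -0.06 and was taken off the ratios, which raised them.

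No paired analysis was possible because each group has 1 library, so the groups share 1 replicate number and no test was made. Depth limits genes under about 10 CPM, and counting intervals hold no spread between embryos, dissections or libraries.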
